A study of Mus musculus with 6 samples.

Results

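The oligodendrocyte lineage genes described here are 9 genes that mark the cells which make myelin. They were chosen by name from a list of known markers and not by their values, but earlier results of these data were already known. Of the 9 genes, 6 mark the precursor cells (*Olig1*, *Olig2*, *Sox10*, *Sox8*, *Pdgfra* and *Cspg4*) and 3 encode proteins of myelin or of the cells that form it (*Mbp*, *Cnp* and *Mag*). Their RNA was measured at postnatal day 0 by strand-specific sequencing of poly(A) RNA, in 3 libraries of *Mov10* Deletion and 3 of wild-type (WT) hippocampus, each pooling at least 2 pups. MOV10, an RNA helicase, acts in silencing by microRNAs. The *Mov10* Deletion mouse joins a conditional allele, whose exons 6 and 7 are removed by Cre recombinase made from the *Emx1* locus, with a mutant *Mov10* allele carried in the germline. The labels describe the control pups only as WT, which the study defines as normal mice that were not engineered. Effects of Cre or of the altered alleles therefore cannot be told apart from those of less MOV10. *Emx1*-Cre is active in the progenitors of the dorsal forebrain, which give rise to excitatory neurons and also to glia, while the germline allele is present in every cell of the pup. All 9 genes were among the 16745 that passed the expression filter, of 29469 with any count.

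Oligodendrocytes arise from dividing precursor cells that migrate through the developing brain before they mature. The precursors depend on the growth factor PDGF-AA, which acts through the receptor PDGFRA, and their identity is set by the transcription factors OLIG1, OLIG2 and SOX10. Myelin genes come on strongly only when precursors mature, and in the rodent forebrain most of that happens after birth. The newborn hippocampus is known to hold precursors and hardly any myelin.

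The 9 genes differed little between *Mov10* Deletion and WT. *Olig2* was the single member called different (adjusted p under 0.05 among all tested genes): it was lower in *Mov10* Deletion, with a log2 fold change of -0.28 (1.22-fold lower). None of the 9 was called higher by limma-trend, by edgeR's quasi-likelihood test or by DESeq2. At an unadjusted p under 0.05 (limma-trend) 2 were lower, *Olig2* and *Cnp*, and 0 higher. Of the 16745 tested genes, 6550 had an unadjusted p under 0.05 in either direction. At the adjusted threshold 12.1% of all tested genes were called lower, 12.6% higher and 24.7% in either direction. The CPM values of the groups (read counts scaled by library size) overlapped for all 9 members, while they did not overlap for 41.6% of all tested genes. The call of *Olig2* depended on the factors of unwanted variation in the fit, because without them its adjusted p was 0.110 (limma-trend). RNA from a whole tissue cannot tell fewer cells of a type from less RNA per cell, and that holds for every value below.

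The targeted gene checks the labels. *Mov10* had 2.09, 1.99 and 1.79 TPM (a level scaled by transcript length and library size) in the 3 Deletion libraries and 3.06, 3.25 and 2.91 TPM in the 3 WT libraries, all Deletion libraries below all WT libraries. In CPM, the scale of the test, it stood at 2.22 ± 0.196 in Deletion and 4.79 ± 0.0321 in WT (SD, n = 3), with a log2 fold change of -1.11 (SE 0.10, limma-trend, adjusted p = 0.00115). Over the alternatives that value lay between -1.17 and -0.67, the smallest change being that of *Mov10* on length-scaled TPM. The libraries held between 71400300 and 86207971 estimated counts, and their log2 CPM correlated between 0.991 and 0.996 within a genotype across genes. The tissue label was checked with 8 genes of hippocampal excitatory neurons, which were all tested and summed to between 1350 and 1384 TPM in Deletion and between 1360 and 1374 TPM in WT. Their summed CPM was 3571 to 3929 in Deletion and 3373 to 3450 in WT, without overlap. Only 1 of the 8 was called, *Zbtb20*, which was higher (limma-trend, adjusted p = 0.0222), beside 12.6% of all tested genes called higher. It had 1550, 1486 and 1771 CPM in Deletion and 1307, 1314 and 1356 CPM in WT, the largest part of the summed CPM. *Slc17a7* had a log2 fold change of 0.31 and was not called (adjusted p = 0.0605). It was called in 11 of 20 alternatives, as without factors (adjusted p = 0.0359, both limma-trend). The median log2 fold change of the 8 was 0.0025, with 4 of them positive.

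*Olig1* and *Olig2*, neighbouring genes for related basic helix-loop-helix transcription factors, have fold changes of opposite sign in these data, so the 250 bases before the start of the transcript quantified for each are shown (GRCm39, plus strand, 5′ to 3′). The annotated span of *Olig2* begins further upstream, so its window lies within the annotated gene. The *Olig2* window is chr16:91022048-91022297 and the *Olig1* window chr16:91066410-91066659, and the end of *Olig2* lies 41.1 kb before the start of *Olig1*. CCAAT boxes, read as CCAAT on either strand, are in capitals.
Olig1: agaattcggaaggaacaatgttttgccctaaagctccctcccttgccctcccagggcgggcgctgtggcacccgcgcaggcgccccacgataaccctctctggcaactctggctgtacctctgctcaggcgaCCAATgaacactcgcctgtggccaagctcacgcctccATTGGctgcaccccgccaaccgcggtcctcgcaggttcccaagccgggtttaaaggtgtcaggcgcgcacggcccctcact
Olig2: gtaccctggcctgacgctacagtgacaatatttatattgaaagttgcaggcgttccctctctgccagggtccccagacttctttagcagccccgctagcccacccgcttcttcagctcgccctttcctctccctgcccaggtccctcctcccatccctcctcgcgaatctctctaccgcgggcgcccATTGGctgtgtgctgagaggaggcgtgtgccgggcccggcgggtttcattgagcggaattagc

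*Olig1* had 2 CCAAT boxes in its window and *Olig2* had 1, a motif present in 35.6% of the same windows of the 14601 protein-coding genes tested. The longest run of letters the windows shared was CCATTGGCTG, of 10 bases, which holds the box and begins 83 bases before the start of the *Olig1* transcript and 65 bases before that of the *Olig2* transcript. Both windows were rich in G and C (63.6% in *Olig1* and 60.8% in *Olig2*). Neither held an E-box (CANNTG, in 60.6% of all windows), the core of SOX binding sites (ACAAAG, in 13.4%) or the core of GLI binding sites (GACCACCC, in 0.719%), each searched on both strands. In the windows of the other members the E-box was found once each before *Sox10*, *Sox8*, *Pdgfra*, *Mbp* and *Cnp* and at 2 places before *Mag*, the SOX core once before *Cnp*, and the GLI core before none. The CCAAT box was found once before *Sox8* and at 2 places before *Mag*. The CCAAT box was marked after the sequences had been read, and a match of letters is a description of the sequence only.

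The levels of the members spanned a wide range, from *Olig1* at a mean of 56.0 TPM over the 6 libraries down to *Mag* at 0.694 TPM. Between them came *Sox8* (21.8), *Olig2* (20.7), *Pdgfra* (18.7), *Cnp* (15.7), *Mbp* (9.04), *Cspg4* (7.31) and *Sox10* (5.38 TPM). The ranges of neighbours in this order overlapped from *Sox8* through *Cnp*, and for *Cspg4* and *Sox10*. *Olig1* lay above *Sox8*, *Cnp* above *Mbp*, *Mbp* above *Cspg4* and *Sox10* above *Mag* in all 6 libraries.

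**Figure D1:**
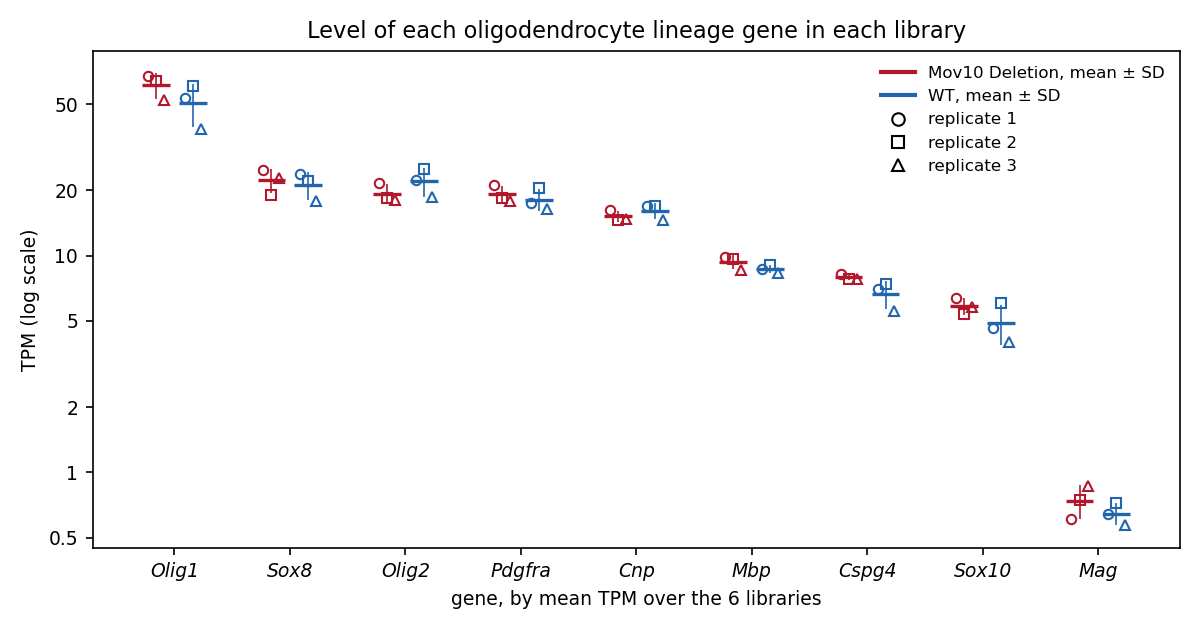
Level of each member in TPM (y axis, log scale) in the 3 *Mov10* Deletion (red) and 3 WT (blue) libraries, with replicates as symbols, the mean as a horizontal line and the SD as a vertical line. The red and blue points overlap for 8 genes and not for *Cspg4*, *Olig1* lies highest at 38.2 to 67.8 TPM and *Mag* lowest at 0.571 to 0.870 TPM.

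Among the transcription factors, *Olig2* (ENSMUSG00000039830.11, chr16:91019435-91025567), without which the lineage does not form, had 21.7, 18.4 and 18.0 TPM in the 3 Deletion libraries and 22.2, 25.2 and 18.6 TPM in the 3 WT libraries. The WT libraries of replicates 1 and 2 lay above all Deletion libraries, while WT replicate 3 lay among them, so the groups overlapped. Its log2 fold change on the CPM scale was -0.28 (SE 0.08, 95% interval -0.47 to -0.09), with an adjusted p of 0.0423 (limma-trend with 2 RUVs factors, Benjamini-Hochberg over all tested genes). The sign was negative in all 20 alternative analyses, with log2 fold changes from -0.34 to -0.19 and adjusted p from 0.00365 to 0.172. It stayed under the threshold in 8 of them. The call was lost without Deletion replicate 3 (adjusted p = 0.0600) and without WT replicate 2 (0.0941), both with limma-trend.

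*Olig1* (ENSMUSG00000046160.7, chr16:91066660-91068821), which supports the maturation of precursors, had 67.8, 63.8 and 52.1 TPM in Deletion and 53.2, 60.7 and 38.2 TPM in WT. Its 2 highest values were in Deletion and its lowest in WT replicate 3, and the groups overlapped. The log2 fold change was 0.13 (SE 0.12, 95% interval -0.16 to 0.41, limma-trend, adjusted p = 0.482).

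The level of *Olig1* divided by that of *Olig2* in the same library, both in TPM, was 3.13, 3.47 and 2.89 in Deletion and 2.39, 2.41 and 2.06 in WT. All 3 Deletion libraries lay above all 3 WT libraries. A similar separation held for *Olig2* against the rest of its set. Relative to the mean log2 CPM of the other 5 precursor genes it stood at -0.37, -0.40 and -0.45 in Deletion and at -0.06, -0.02 and -0.01 in WT, a difference of -0.37. WT replicate 3, whose *Olig2* level overlapped with Deletion, was also the lowest WT library for all 9 members, and it did not stand apart from the other WT libraries once *Olig2* was read against its set. These ratios were formed after the values had been seen and are descriptions without a test.

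*Sox10* (ENSMUSG00000033006.12, chr15:79039108-79049469), a factor kept on from the precursor to the myelinating cell and a direct activator of myelin genes, had 6.38, 5.37 and 5.80 TPM in Deletion and 4.66, 6.04 and 4.01 TPM in WT. WT replicate 2 was level with Deletion and the other WT libraries were below it. On the log2 scale the fold change was 0.16 (SE 0.13, 95% interval -0.14 to 0.46, limma-trend, adjusted p = 0.399). *Sox8* (ENSMUSG00000024176.13, chr17:25784634-25789726), a related factor that acts partly in place of SOX10 and is also made by astrocytes, had 24.8, 19.1 and 22.9 TPM in Deletion and 23.9, 22.0 and 17.8 TPM in WT. The groups covered nearly the same range. Its log2 fold change was -0.05 (SE 0.06, 95% interval -0.19 to 0.09, limma-trend, adjusted p = 0.567), and the sign was the same in only 12 of 20 alternatives.

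**Figure D2:**
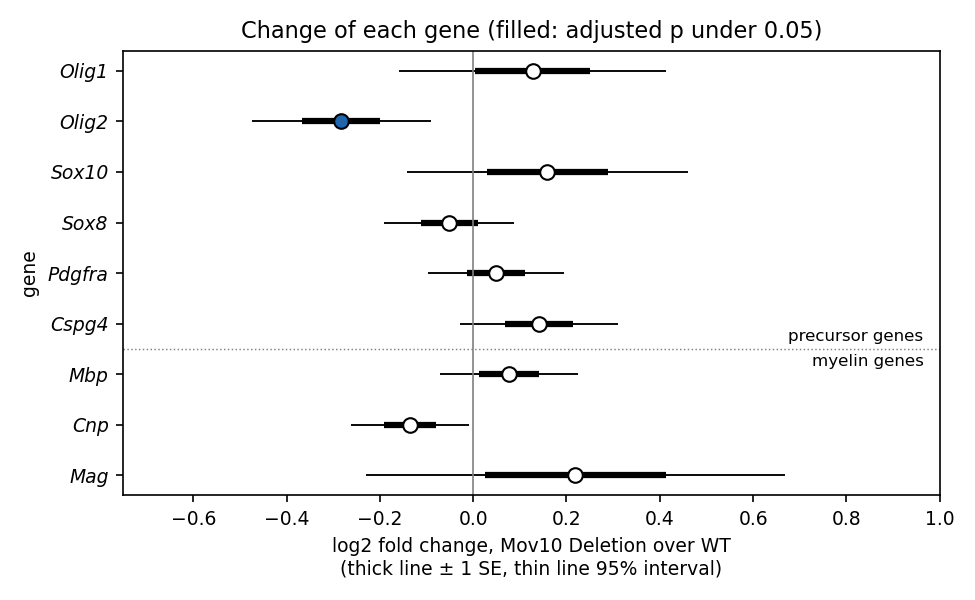
Change between genotypes for each member as log2 of Deletion over WT (x axis), with 1 SE as a thick and the 95% interval as a thin line. *Olig2*, at -0.28, is the filled point and was called at an adjusted p under 0.05, while the other 8 points are open.

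The surface proteins of precursors came next. *Pdgfra* (ENSMUSG00000029231.17, chr5:75311994-75358876), the receptor through which PDGF-AA keeps precursors dividing, had 21.3, 18.5 and 17.8 TPM in Deletion and 17.5, 20.5 and 16.4 TPM in WT. Each group had 1 library above 20 TPM. The log2 fold change was 0.05 (SE 0.06, 95% interval -0.10 to 0.19, limma-trend, adjusted p = 0.600). *Cspg4* (ENSMUSG00000032911.8, chr9:56772317-56807187), which encodes the proteoglycan NG2, had 8.25, 7.80 and 7.84 TPM in Deletion and 7.02, 7.38 and 5.57 TPM in WT. All 3 Deletion libraries lay above all 3 WT libraries in TPM, but not in CPM, where WT replicate 2 had 30.98 and Deletion replicate 2 had 30.80. The coding transcript alone overlapped, with 5.82, 5.38 and 5.83 TPM in Deletion and 5.08, 5.79 and 4.30 TPM in WT. A transcript with a retained intron did not overlap, with 2.04, 1.96 and 1.69 TPM in Deletion and 1.50, 1.33 and 1.03 TPM in WT. So the separation in TPM was not one of the coding transcript. *Cspg4* had a log2 fold change of 0.14 (SE 0.07, 95% interval -0.03 to 0.31, limma-trend, adjusted p = 0.194).

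Leaving out WT replicate 2 changed 4 calls among the precursor genes. It was the highest WT library for 8 of the 9 members, and Deletion replicate 1 the highest Deletion library for 8 of the 9. With WT replicate 2 left out, *Olig1* (log2 fold change 0.26, adjusted p = 0.0239), *Sox10* (0.32, adjusted p = 0.0402) and *Cspg4* (0.23, adjusted p = 0.0351, all limma-trend) were called higher, and *Olig2* was no longer called lower. With all 6 libraries none of these 3 was called. The median log2 fold change of the 6 precursor genes was 0.088, with 4 of 6 above 0, beside 0.0056 for all tested genes. It was 0.030 without Deletion replicate 1, 0.031 without WT replicate 3 and 0.17 without WT replicate 2.

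*Pdgfra* is also made by fibroblasts of the meninges, which cling to dissected hippocampus, and *Cspg4* by pericytes of blood vessels. Of 9 meningeal fibroblast markers, all tested, 3 were called higher and 2 lower, beside 12.6% and 12.1% of all tested genes. The CPM values of the groups overlapped for all 9. All 5 calls were lost without factors, with adjusted p (limma-trend) from 0.124 for *Lum* to 0.722 for *Aldh1a2*. Their summed level reached from 56.5 to 243 CPM in Deletion and from 83.6 to 107 CPM in WT. Deletion replicate 1 held that maximum (*Col1a1*, a collagen of fibroblasts, was at 41.4 CPM there and between 9.10 and 16.8 CPM in the other 5 libraries) and was also the Deletion library with the most *Pdgfra*. Without Deletion replicate 1 the log2 fold change of *Pdgfra* was -0.01 (limma-trend, adjusted p = 0.895). The part of these cells in the *Pdgfra* values was not tested.

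Of 8 pericyte markers, 2 were called higher and 1 lower, beside 12.6% and 12.1% of all tested genes. Their summed level was 260 to 309 CPM in Deletion and 247 to 255 CPM in WT. *Rgs5*, a marker of brain pericytes, was 1.15-fold higher (adjusted p = 0.00647) and the channel gene *Kcnj8* 1.37-fold higher (adjusted p = 0.0180, both limma-trend). *Pdgfrb*, the receptor that pericytes need, had a log2 fold change of -0.18 (limma-trend, adjusted p = 0.0253), a call lost without factors (0.0912), without Deletion replicate 2 (0.0587) and without WT replicate 2 (0.0675). The call of *Kcnj8* was lost without factors (adjusted p = 0.0588), with 1 factor (0.0597) and without WT replicate 1 (0.142, all limma-trend). The part of pericytes in the *Cspg4* values was not tested.

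The myelin genes began with *Mag* (ENSMUSG00000036634.17, chr7:30598464-30614474), whose product sits on the inner face of the myelin sheath against the axon. It was near the limit of what these libraries resolve, at 0.611, 0.745 and 0.870 TPM in Deletion and 0.645, 0.722 and 0.571 TPM in WT, from 57 to 84 estimated counts per library. Deletion held both the highest value and the second lowest. The log2 fold change was 0.22 with a wide 95% interval of -0.23 to 0.67 (SE 0.19, limma-trend, adjusted p = 0.438).

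*Mag* is known for a short and a long protein, set by an exon of 45 bases that carries a stop codon. The transcript *Mag-201*, which includes the exon, has a reading frame of 582 residues, and *Mag-207*, which skips it, of 627. The exon lies at chr7:30599777-30599821 (GRCm39, minus strand) and is printed with the stop codon in capitals, since it sets which of the reading frames a transcript has. The annotated ends of the 2 transcripts differ as well.
Mag exon: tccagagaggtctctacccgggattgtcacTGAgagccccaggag

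*Mag-201* held 92.5%, 94.4% and 94.4% of the summed TPM of *Mag* in Deletion and 67.4%, 79.7% and 42.5% in WT. *Mag-207* held 5.80%, 5.59% and 0% in Deletion and 31.1%, 15.6% and 48.0% in WT. The shares of the groups did not overlap for either transcript. They rest on very few counts, since *Mag-207* was assigned 3.22, 3.66 and 0 estimated counts in Deletion and 19.4, 9.76 and 24.9 in WT, where 0 allows up to 3 counts. *Mag-207* did not pass the filter of the transcript test, so the difference was not tested, and the separation was noticed after the values had been seen.

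*Cnp* (ENSMUSG00000006782.18, chr11:100465730-100482936) encodes a phosphodiesterase of the non-compacted parts of myelin that is made already by immature cells of the lineage. It had 16.3, 14.6 and 14.7 TPM in Deletion and 17.0, 16.9 and 14.6 TPM in WT. WT replicates 1 and 2 were the highest, and WT replicate 3 was level with Deletion replicates 2 and 3. The log2 fold change was -0.14 (SE 0.05, 95% interval -0.26 to -0.01), and with an adjusted p of 0.110 (limma-trend) it was not called. Over the 20 alternatives the sign was always negative and the adjusted p lay between 0.0560 and 0.383. Relative to the mean log2 CPM of *Mbp* and *Mag* it stood at 2.30, 2.03 and 1.98 in Deletion and at 2.42, 2.31 and 2.37 in WT. The groups did not overlap, but Deletion replicate 1 (2.30) and WT replicate 2 (2.31) lay close together. *Mag*, part of that mean, had only 57 to 84 estimated counts per library. The comparison is a description formed after the values had been seen.

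**Figure D3:**
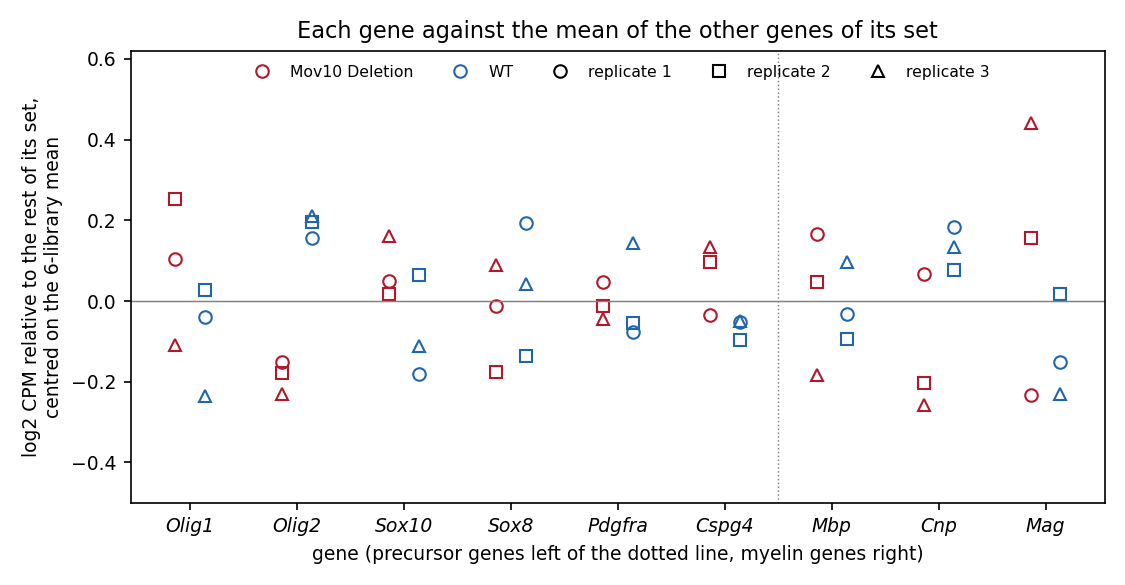
Log2 CPM of each member minus the mean of the other members of its set, centred on the mean of the 6 libraries (y axis), for *Mov10* Deletion (red) and WT (blue), with replicates as symbols. The red points of *Olig2* and *Cnp* lie below all blue points and those of *Cspg4* above, while the other 6 genes overlap. No share of all genes was formed on this scale. In CPM the groups did not overlap for 41.6% of all tested genes.

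*Mbp* (ENSMUSG00000041607.19) encodes the protein that holds the layers of myelin together. It had 9.88, 9.70 and 8.59 TPM in Deletion and 8.68, 9.05 and 8.36 TPM in WT, 2 Deletion libraries being the highest and the third level with WT. Its log2 fold change was 0.08 (SE 0.06, 95% interval -0.07 to 0.23, limma-trend, adjusted p = 0.406). As a marker of myelin this value needs its transcripts, because *Mbp* has a second start 79.5 kb upstream of the classic one, and the transcripts from there, called golli, are made by neurons and immune cells as well as by the oligodendrocyte lineage.

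The 4 annotated transcripts from the upstream start held 91.8%, 88.6% and 98.4% of the summed TPM of *Mbp* in Deletion and 92.4%, 94.0% and 92.1% in WT. The single transcript *Mbp-205* made up between 70.3% and 76.9%. The 7 transcripts that begin at the classic start or downstream of it held 8.18%, 11.4% and 1.62% in Deletion and 7.62%, 6.03% and 7.92% in WT, from 6.31 to 72.2 estimated counts. So the *Mbp* level of these libraries was mainly that of golli transcripts, and the classic share overlapped between genotypes, with both the highest and the lowest value in Deletion.

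**Figure D4:**
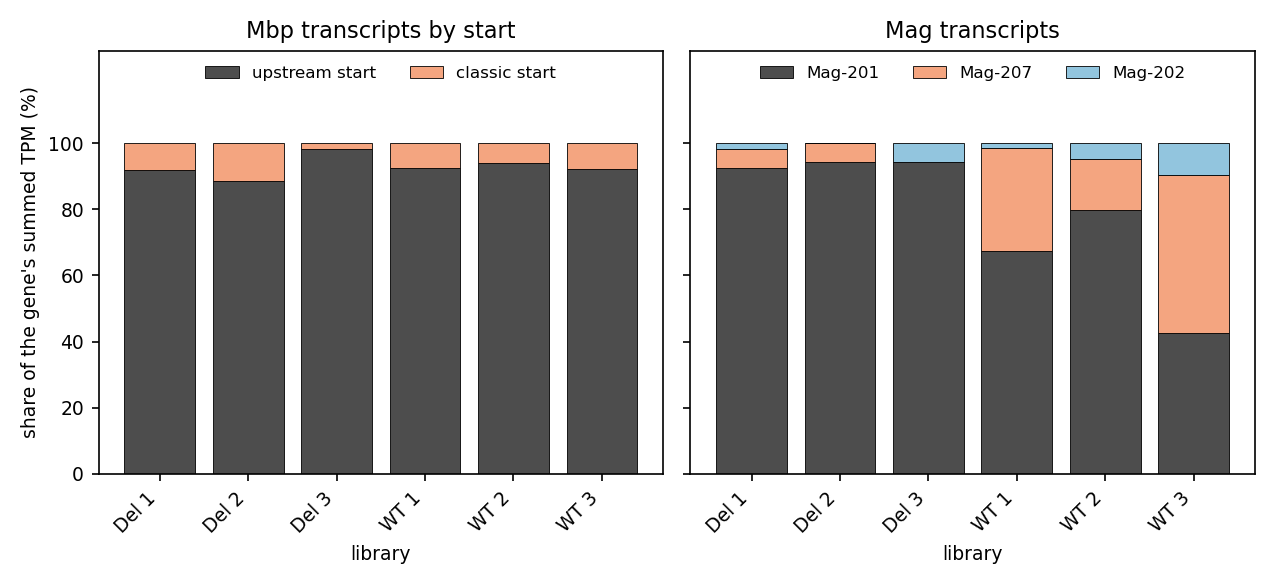
Share of the summed TPM of *Mbp* by transcription start (left) and of *Mag* by transcript (right) in each library (y axis, percent). The upstream start of *Mbp* holds 88.6% to 98.4% in the 6 libraries, and *Mag-207* is at most 5.80% in Deletion and at least 15.6% in WT.

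Use of transcripts was tested for the members with 2 or more tested transcripts, beside 5.51% of 10338 genes called for it in all. None of the 4 members was called (limma diffSplice, adjusted p = 0.0622 for *Pdgfra*, 0.382 for *Cnp*, 0.463 for *Cspg4* and 0.997 for *Mbp*), nor was any without factors, where *Pdgfra* had an adjusted p of 0.401. With factors *Pdgfra* had an unadjusted p of 0.00410 in that fit across genes (limma diffSplice). Its main transcript *Pdgfra-201* held between 82.2% and 90.8% of its TPM. *Pdgfra-202*, which starts at a later first exon, had 3.57%, 2.24% and 1.97% in Deletion and 4.09%, 5.25% and 4.61% in WT, without overlap, from 88.0 to 289 estimated counts, and its own use was not called (limma diffSplice, unadjusted p = 0.339, adjusted p = 0.768). The smallest p among the transcripts of *Pdgfra* were those of *Pdgfra-208* (unadjusted p = 0.00147, adjusted p = 0.0529) and *Pdgfra-205* (unadjusted p = 0.0115), neither called by limma diffSplice and both named after their values were seen. A coding transcript held 69.1% to 78.5% of the TPM of *Cspg4*. A transcript with a retained intron held 24.8%, 25.2% and 21.5% in Deletion and 21.4%, 18.0% and 18.5% in WT, without overlap. The use of that retained-intron transcript was not called (limma diffSplice, unadjusted p = 0.0787, adjusted p = 0.418). *Olig1* and *Olig2* each have 1 listed transcript.

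Set against each other, precursor and myelin genes had medians close to each other. The median log2 fold change was 0.088 for the 6 precursor genes and 0.077 for the 3 myelin genes, each with members on both sides of 0. The myelin median was the value of *Mbp* itself, whose TPM came mainly from golli transcripts, and *Mag* rested on few counts. So the comparison says little about myelin as such. Mean log2 CPM of the myelin set minus that of the precursor set was -2.20, -1.98 and -1.97 in Deletion and -2.06, -2.14 and -1.94 in WT. Deletion and WT covered the same range of that difference. Over the 6 libraries the pair of members most alike in log2 CPM was *Olig2* and *Cnp* (Pearson's r = 0.97), followed by *Sox10* and *Cspg4* (0.94), while *Olig1* and *Olig2* were at 0.30. These are descriptions over 6 libraries that share their scaling and include both genotypes.

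Genes outside the set were compared in the same way. Over the 14425 genes that averaged 1 CPM or more, those whose log2 CPM followed *Pdgfra* most closely over the 6 libraries included *Tyrobp* (r = 0.995), *Ncf1* (0.993), *Crem* (0.982) and *Cimip5* (0.977). For *Mbp* they were *Nme5* (r = 0.992), *Ptk2b* (0.992), *Slc25a5* (0.990), *B3gat2* (0.990) and *Nrip3* (0.988). None of these 9 genes was called between genotypes (limma-trend, adjusted p of 0.174 or above). They were picked as the highest correlations among 14425 genes over only 6 libraries, where such values can be reached by chance. Shared expression was not tested.

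Other markers of the precursor stage included several that were higher. Of 22 listed genes 20 were tested, and 6 of them were called higher and 1 lower, with a median log2 fold change of 0.11, beside 12.6% of all tested genes called higher. *Bcan*, a proteoglycan of the extracellular matrix, had 105, 90.5 and 94.3 CPM in Deletion and 65.1, 72.2 and 63.1 CPM in WT and was 1.43-fold higher (adjusted p = 0.00143). *Tnr*, which encodes the matrix protein tenascin-R, was 1.34-fold higher (adjusted p = 0.00176), the protocadherin gene *Pcdh15* 1.50-fold (adjusted p = 0.00278) and *Xylt1*, which starts the sugar chains of proteoglycans, 1.30-fold (adjusted p = 0.00310, all limma-trend). *Fyn*, a kinase active in maturing oligodendrocytes and in neurons, fell by 0.20 on the log2 scale (adjusted p = 0.0101, limma-trend). Of these genes *Bcan*, *Tnr* and *Xylt1* kept their call in all 20 alternatives, and all 5 kept it without any single library.

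Several genes of that list are made by astroglia and neurons as well. Among 10 astrocyte markers, all tested, 2 were called higher, beside 12.6% of all tested genes. They had a median log2 fold change of 0.15 over the 10 and a summed level of 1665 to 1751 CPM in Deletion and 1435 to 1615 CPM in WT. *Aqp4*, the water channel of astrocyte endfeet, had 45.2, 40.1 and 37.9 CPM in Deletion and 16.7, 23.4 and 14.1 CPM in WT and was 2.21-fold higher (adjusted p = 0.00279). *Gfap*, the intermediate filament of astrocytes, was 1.56-fold higher (adjusted p = 0.00376, both limma-trend). The part of astroglia in the precursor list was not tested.

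Among 28 other myelin genes 21 were tested, of which 4 were called higher and 1 lower (median log2 fold change 0.086). The shares over all tested genes were 12.6% higher and 12.1% lower. *Plekhb1*, a membrane protein also of neurons, had 13.6, 12.5 and 12.3 CPM in Deletion and 6.41, 7.26 and 6.22 CPM in WT. Every Deletion library lay above every WT library, and it was 1.91-fold higher (adjusted p = 0.00115). *Josd2*, a deubiquitinase, was 1.33-fold higher (adjusted p = 0.00649) and *Qdpr*, which recycles tetrahydrobiopterin, 1.14-fold (0.0175, all limma-trend), a call that was lost without WT replicate 2 (0.0738). *Apod*, a lipid-binding protein, had 20.1, 9.03 and 11.6 CPM in Deletion and 17.9, 21.0 and 23.1 CPM in WT and was 1.58-fold lower (adjusted p = 0.00115, limma-trend), with overlapping groups and an adjusted p of 0.0648 without factors. The late myelin genes *Mog*, *Mobp*, *Fa2h*, *Aspa*, *Opalin*, *Klk6* and *Ninj2* were below the filter, with *Mog* between 0 and 0.0841 CPM and *Klk6* at 0 in all 6 libraries. Schwann cells, the myelinating cells of peripheral nerve, share *Sox10*, *Mbp*, *Cnp* and *Mag* with the lineage. Of 8 markers of Schwann cells and neural crest 4 were tested and none was called (limma-trend, no unadjusted p of the 4 under 0.05), with summed levels of 18.1 to 20.9 CPM in Deletion and 19.4 to 21.2 CPM in WT. Their defining gene *Foxd3* was at 0 in all 6 libraries.

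The regulators of the lineage are the factors that switch its stages. Of 31 listed 30 were tested, 1 was called higher and 6 lower, with a median log2 fold change of -0.083, beside 12.1% of all tested genes called lower. *Hes5*, a Notch target that holds precursors back from maturing, had 24.7, 19.3 and 25.0 CPM in Deletion and 17.2, 15.2 and 17.5 CPM in WT and was 1.37-fold higher (adjusted p = 0.0161). *Etv5* and *Etv4*, factors downstream of growth factor signals, were 1.22-fold and 1.20-fold lower (adjusted p = 0.00790 and 0.0143). *Sox4* was 1.14-fold lower (adjusted p = 0.0124) and the zinc finger gene *Zfp24* 1.11-fold lower (adjusted p = 0.0286, all limma-trend), and both calls were lost without WT replicate 2 (0.0624 and 0.0760). Neural progenitors share several of these factors, and their 10 markers summed to 563 to 638 CPM in Deletion and 623 to 663 CPM in WT, with 1 called higher and 5 lower. Among these *Top2a*, a gene of dividing cells, fell by 0.22 on the log2 scale (adjusted p = 0.0131) and the receptor gene *Egfr* was 1.33-fold higher (adjusted p = 0.0297, both limma-trend). Without factors the lower calls of *Mki67* (adjusted p = 0.0552) and *Pax6* (0.0519, both limma-trend) were lost, while the other calls of these markers were kept.

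The signals that act on the lineage gave 2 genes higher and 5 lower of 29 tested, with a median log2 fold change of -0.064. Among all tested genes 12.6% were called higher and 12.1% lower. Hedgehog signalling, which induces *Olig2* in the ventral nervous system, was represented by 6 listed genes, grouped here after their values were seen, of which 3 were called lower and *Gli2*, *Gli3* and *Shh* were not called. *Gli1*, a transcription factor and target of the pathway, had 10.3, 10.1 and 12.5 CPM in Deletion and 19.8, 17.1 and 20.3 CPM in WT. All Deletion libraries were below all WT libraries, and it was 1.72-fold lower (adjusted p = 0.00313). *Ptch1*, the receptor of Hedgehog ligands and itself a target, was 1.27-fold lower (adjusted p = 0.00362) and *Smo*, the membrane protein that passes the signal on, 1.21-fold lower (adjusted p = 0.00347, all limma-trend). *Gli1* and *Smo* were called in all 20 alternatives and *Ptch1* in 19. The ligand *Shh* itself was at 0.399 to 0.619 TPM (limma-trend, adjusted p = 0.608).

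Among the other signals *Erbb4*, a neuregulin receptor that interneurons also make, was 1.42-fold higher (adjusted p = 0.00156) and *Lama2*, a laminin that promotes the survival of oligodendrocytes, 1.49-fold higher (adjusted p = 0.00240). The receptor *Bmpr1a*, through which BMPs hold the lineage back, was 1.10-fold lower (adjusted p = 0.0218, all limma-trend), a call lost without WT replicate 2 (0.107). *Pdgfa*, the ligand of *Pdgfra*, had 27.2, 26.8 and 26.7 TPM in Deletion and 30.8, 27.6 and 27.2 TPM in WT, with overlapping groups and a log2 fold change of -0.08 (limma-trend, adjusted p = 0.274).

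**Figure D5:**
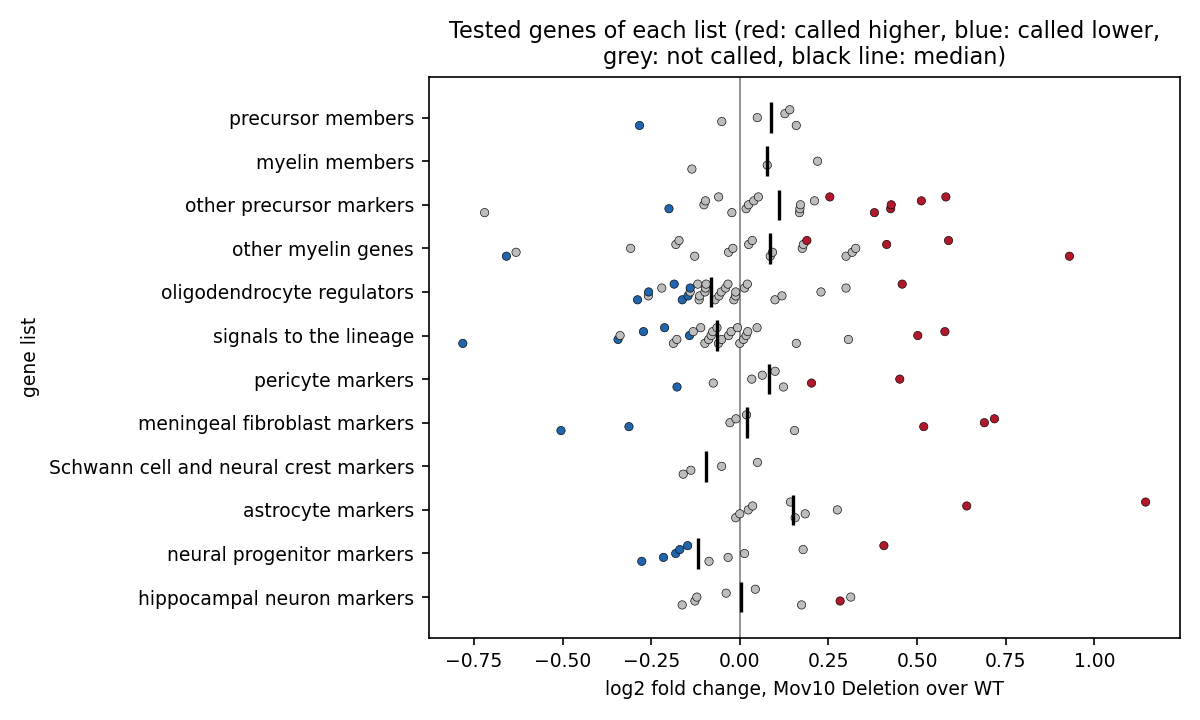
Change as log2 of Deletion over WT (x axis) for the tested genes of each list (y axis), with genes called higher in red, called lower in blue, not called in grey and the median as a black line. The members lie between -0.28 and 0.22, *Gli1* at -0.78 is the lowest point of the signals and *Aqp4* at 1.14 the highest of all lists.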

How the data were processed

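Salmon 1.4.0, with the GRCm39 genome as decoy, was the authors' quantifier of the reads. Each deposited file gives estimated counts per transcript, not normalized by the authors, and TPM, scaled in the authors' Salmon runs by effective length and sequencing depth. For the annotation release of the index, nothing is given in the sources used here. Of 139225 transcript identifiers 137570 matched GENCODE M39 without version, and the rest (0.589% to 0.600% of counts) were left out. Counts and TPM were summed per gene. Following the study's methods, genes reaching 0.25 CPM in 3 or more libraries were TMM-normalized and tested by limma-trend (log2 CPM, prior count 2) with genotype and 2 factors of unwanted variation, p being two-sided and Benjamini-Hochberg adjusted over 16745 genes (R 4.3.3, limma 3.58.1, edgeR 4.0.16). The methods name RUVSeq but no function of it. RUVs was chosen here, with all tested genes as controls, and written out in R as the package was not at hand. The factors come from these libraries, and the fit kept 2 residual degrees of freedom beside 5.89 prior ones, so small p-values can occur where pools of a genotype differ widely. CPM printed are not corrected for the factors.

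Groups and replicate numbers came from the sample titles. Deviations of same-numbered libraries from their group means correlated at 0.01, -0.07 and 0.04. These values show no clear pairing, but 3 libraries per genotype cannot settle whether the numbers pair them. The labels do not say. Transcript usage was tested with diffSplice on transcripts past the same filter. Both tests were run on simulated counts with known changes. Those counts varied in a simpler way than these libraries do, so that run does not bound the errors of the tests here. DESeq2 1.42.0 and edgeR's quasi-likelihood test were among the alternatives. Windows and the exon were read from GRCm39 with GENCODE M39 coordinates.

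The members and lists were chosen with earlier results of these data known. Named genes are the members, *Mov10*, up to 4 called genes per direction of each list or its 3 with the smallest p, the 5 most like *Pdgfra* and *Mbp*, and transcripts holding at least 5% of a member's TPM. Untested and defining markers, *Shh*, *Pdgfa* and *Col1a1* were named after their values were seen. Some genes that this rule takes are not reported here.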

Additional observations from a re-analysis of the deposited data

How the results depend on the processing

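The call of *Olig2* was the member result that changed most. No member (0) was called lower without factors, with 1 factor, with the log2 CPM of *Xist* (a score of the sex of the pooled pups) in place of factors, with edgeR's quasi-likelihood test or DESeq2 without factors, with upper-quartile normalization, without a filter, with a filter of 1 CPM or on length-scaled TPM, and its adjusted p was then between 0.0532 and 0.172. The *Xist* score left 1222 genes called, with 702 genes called higher and 520 genes called lower, and testing all genes with any count left 925 (445 higher, 480 lower). Upper-quartile normalization gave 2320 higher and 1491 lower against 2104 and 2033 with TMM. The myelin median was -0.011 with the 1 CPM filter, which dropped *Mag*. Leaving out 1 library in turn gave 0 to 3 members called higher, 0 to 1 lower, 1656 to 2809 genes higher and 1147 to 2988 lower, with the lowest numbers and the 3 members both without WT replicate 2. Signs turned for *Slc22a6* (-0.041) and *Slc6a13* (-0.24) with the *Xist* score, for *Aldh1a2* with edgeR (0.19) and DESeq2 (0.18) without factors, and *Slc6a13* ranged from -0.13 without Deletion replicate 1 to 0.97 without Deletion replicate 2. Factors estimated from log2 CPM, an alternative added after seeing the data, changed no member's call. In all, 991 values of single genes kept their side of the threshold, genes without a call whose sign changed included, 161 fell short of it, 22 newly passed it and 5 values of called genes changed sign. The causes of these changes were not tested.

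The fit with the replicate block and no factors left 3425 genes called, with 0 members higher and 0 lower (adjusted p = 0.0729 for *Olig2*, limma-trend). The labels do not say whether the shared numbers pair the libraries.

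The labels name no litter, whose part was not tested. Members below 1 CPM, as *Mag* was in part, rest on few counts. Shares of transcripts are Salmon's own estimates and have no interval here.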
